A study of Homo sapiens with 6 samples.

Results

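The human replication-dependent histone genes were examined in the cytoplasmic RNA of HEK293T cells and of HEK293T cells lacking ALKBH5 and FTO. The genes are the rows of the gene count table whose identifier belongs, in GENCODE release 29, to a protein-coding gene with a symbol starting HIST1H, HIST2H, HIST3H or HIST4H. This choice uses names only and gave 71 of 58721 genes: 6 of class H1, 17 of H2A, 18 of H2B, 15 of H3 and 15 of H4. HEK293T is a human embryonic kidney line that carries the SV40 large T antigen. ALKBH5 and FTO are the demethylases that remove N6-methyladenosine from RNA, and both were targeted with CRISPR/Cas9 in the double knockout. The groups were wild type (3 libraries) and double knockout (3 libraries), described by the labels as independent biological replicates. The labels name no treatment of either group before lysis. Both groups were lysed with Triton X-100 in the presence of cycloheximide, which arrests translating ribosomes, and the cleared lysate was depleted of ribosomal RNA without selection for poly(A). Whether the wild type cells are the direct parent of the knockout, and how many clones the knockout represents, is not given in the sources used here.

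Replication-dependent histone genes supply the bulk of the histones that package newly made DNA, so in dividing cells their mRNAs build up in S phase and are destroyed when replication stops. H2A, H2B, H3 and H4 form the nucleosome core, and H1 binds the linker DNA between nucleosomes. Most of these genes have no introns and their mRNAs end in a conserved stem-loop in place of a poly(A) tail. The stem-loop is bound by SLBP, the stem-loop binding protein, and the end is cut by a complex that contains the U7 small nuclear RNP. Because the mature mRNAs lack a tail, libraries made without poly(A) selection can count them.

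The stem-loop was looked for after the stop codon in the GENCODE transcripts of each gene, as the histone stem-loop of 6 base pairs around a loop of 4 bases. It was present in the transcript models of 32 of the 71 genes, in 6 different versions of 16 bases. Of 19869 other protein-coding genes, 2 hold 1 of these 16-base sequences anywhere in a transcript, which is 0.0101%; 1 of the 2, AL031777.3, overlaps HIST1H3D and HIST1H2AD. One gene for each version, and a second for the commonest, are shown with up to 5 bases on each side in lower case and the stem-loop in capitals.
HIST2H2BE: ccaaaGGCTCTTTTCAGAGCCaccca
HIST1H2AE: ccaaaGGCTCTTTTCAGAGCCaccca
HIST1H4J: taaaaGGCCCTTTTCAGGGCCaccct
HIST1H2BC: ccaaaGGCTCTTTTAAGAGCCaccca
HIST1H2AG: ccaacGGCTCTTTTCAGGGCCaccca
HIST1H3E: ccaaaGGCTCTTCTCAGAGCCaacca
HIST2H4A: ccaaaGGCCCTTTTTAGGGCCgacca
HIST2H2BE and HIST1H2AE carry the same 26 bases, and they are shown together because their counts moved in opposite directions. For the other 39 genes no stem-loop was found in the model, and 19 of the tested genes are among these. Many of those models end at or near the stop codon, so no match says only that the letters are not in the annotated transcript.

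Upstream sequence was available for 66 of the 71 genes from RefSeq (build GRCh38.p14). In the 250 bases before the annotated start, TATAAA, the core of a TATA box, was found on either strand in 66.7% of the 66 against 10.7% of 35116 RefSeq windows of the same length. CCAAT was found in 84.8% against 32.0%: in all windows of H1, H2A, H2B and H3 but in 23.1% of those of H4. The octamer ATTTGCAT, to which POU2F1 (Oct-1) binds, was found in 68.8% of H2A and 77.8% of H2B windows. It was in 7.69% of H3 windows, in none of H1 or H4, and in 1.63% of all windows. The H3 match is a window of HIST1H3D that is also the window of HIST1H2AD (chr6:26199294-26199543). Another HIST1H3D window held no octamer, but the window listed first for each gene was counted. Neighbouring H2A and H2B genes on opposite strands can share most of a window, so a single match of any motif can count for both. Overlaps between motifs were allowed. The windows of the 2 H2B genes HIST2H2BE and HIST1H2BG are shown because both hold all 3 motifs while one gene fell and the other rose. Capitals mark the 3 motifs, on either strand.
HIST2H2BE (GRCh38.p14, chr1:149886683-149886932, minus strand): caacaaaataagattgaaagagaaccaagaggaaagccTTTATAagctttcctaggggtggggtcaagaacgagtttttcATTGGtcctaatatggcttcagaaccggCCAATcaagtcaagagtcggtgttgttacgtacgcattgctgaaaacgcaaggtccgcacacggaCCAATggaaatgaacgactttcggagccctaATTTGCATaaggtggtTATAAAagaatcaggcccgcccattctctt
HIST1H2BG (GRCh38.p14, chr6:26216689-26216938, minus strand): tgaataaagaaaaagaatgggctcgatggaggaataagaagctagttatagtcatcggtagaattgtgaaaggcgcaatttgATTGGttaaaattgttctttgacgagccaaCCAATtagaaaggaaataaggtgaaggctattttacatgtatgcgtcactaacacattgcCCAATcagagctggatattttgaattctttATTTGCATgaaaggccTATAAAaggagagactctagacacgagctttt
Of the 22 tested H2A and H2B genes with a RefSeq window, 15 held the octamer, and of these 11 were lower, 2 higher and 2 not called in the double knockout. The 7 without it were all lower. A motif match is a description of the sequence and not a bound site.

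Libraries held 5634648 to 7551825 counts in genes. Levels are given as CPM, counts divided by a library size that was scaled by the trimmed mean of M values and expressed per 1000000, and a call is an adjusted p under 0.05 in edgeR's quasi-likelihood test with Benjamini-Hochberg adjustment over all 14180 tested genes. FTO and ALKBH5 were looked at as the targeted genes. Mean FTO was 105 CPM in wild type and 56.1 in double knockout (log2 fold change -0.90 ± 0.06 SE, adjusted p = 4.00e-44, n = 3 and 3). Mean ALKBH5 was 245 and 186 CPM (-0.40 ± 0.04, adjusted p = 2.74e-22, n = 3 and 3). Both transcripts were lower and neither was absent. Since 28.5% of all tested genes were called lower, a lower call alone does not settle which columns are the knockout. Genes of kidney epithelium and HEK293 cells (PAX2, KRT18, VIM and others) were detected in 8 of 8 cases. Of these, 7 were called higher in the double knockout, against 28.6% of all tested genes. Their summed level was 1039 to 1103 CPM in wild type and 1497 to 1506 in double knockout. Of 8 fibroblast markers 3 were tested and all 3 were called lower, against 28.5% of all tested genes. COL3A1 (means of 3.80 and 0.694 CPM) and LUM (2.53 and 0.154) were near the floor, and COL1A1 (11.8 and 9.28) had overlapping groups. The list summed to 17.0 to 19.8 CPM in wild type and 10.5 to 12.6 in double knockout, with COL1A2 at 0. Of 8 haematopoietic markers 2 were tested and neither was called; the list summed to 3.99 to 5.36 and 4.83 to 5.69 CPM, with CD3E and HBB at 0. The part of these differences in the histone results was not tested.

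The histone genes as a group were lower in the double knockout. Their summed level was 11085.5, 11839 and 11534.8 CPM in the wild type libraries, and 6964, 8031 and 7228 CPM in the double knockout libraries. All 3 double knockout libraries lay below all 3 wild type libraries, and replicate 2 was the highest of the double knockouts. The means were 11486 ± 379 and 7408 ± 556 CPM (SD, n = 3 each), so the double knockout was at 64.5% of wild type, a description with no test. As a share of all gene counts these genes were 1.09 to 1.15% of wild type and 0.706 to 0.811% of double knockout libraries. In bulk RNA, fewer cells in S phase and less histone mRNA per cell cannot be told apart.

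41 of the 71 genes passed the filter on low counts, and these held 99.978% of the histone counts. Of the 41, 35 were called lower, 3 higher and 3 not called. Over all tested genes, 28.5% were called lower, 28.6% higher and 57.1% in either direction. The median log2 fold change of the 41 was -0.64, against 0.01 for all tested genes, and the 35 lower genes fell between 1.18-fold and 2.1-fold. A call with a fall of at least 0.5 on the log2 scale was made for 9.16% of all tested genes. In 35 histone genes every double knockout library was below every wild type library and in 3 every one was above, against 30.3% and 30.3% of all tested genes, or 60.6% in either direction. The median over the 41 genes of the log2 ratio to the wild type mean was -0.71, -0.50 and -0.68 in the 3 double knockout libraries, against -0.06, 0.04 and 0.02 in the wild type.

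**Figure D1:**
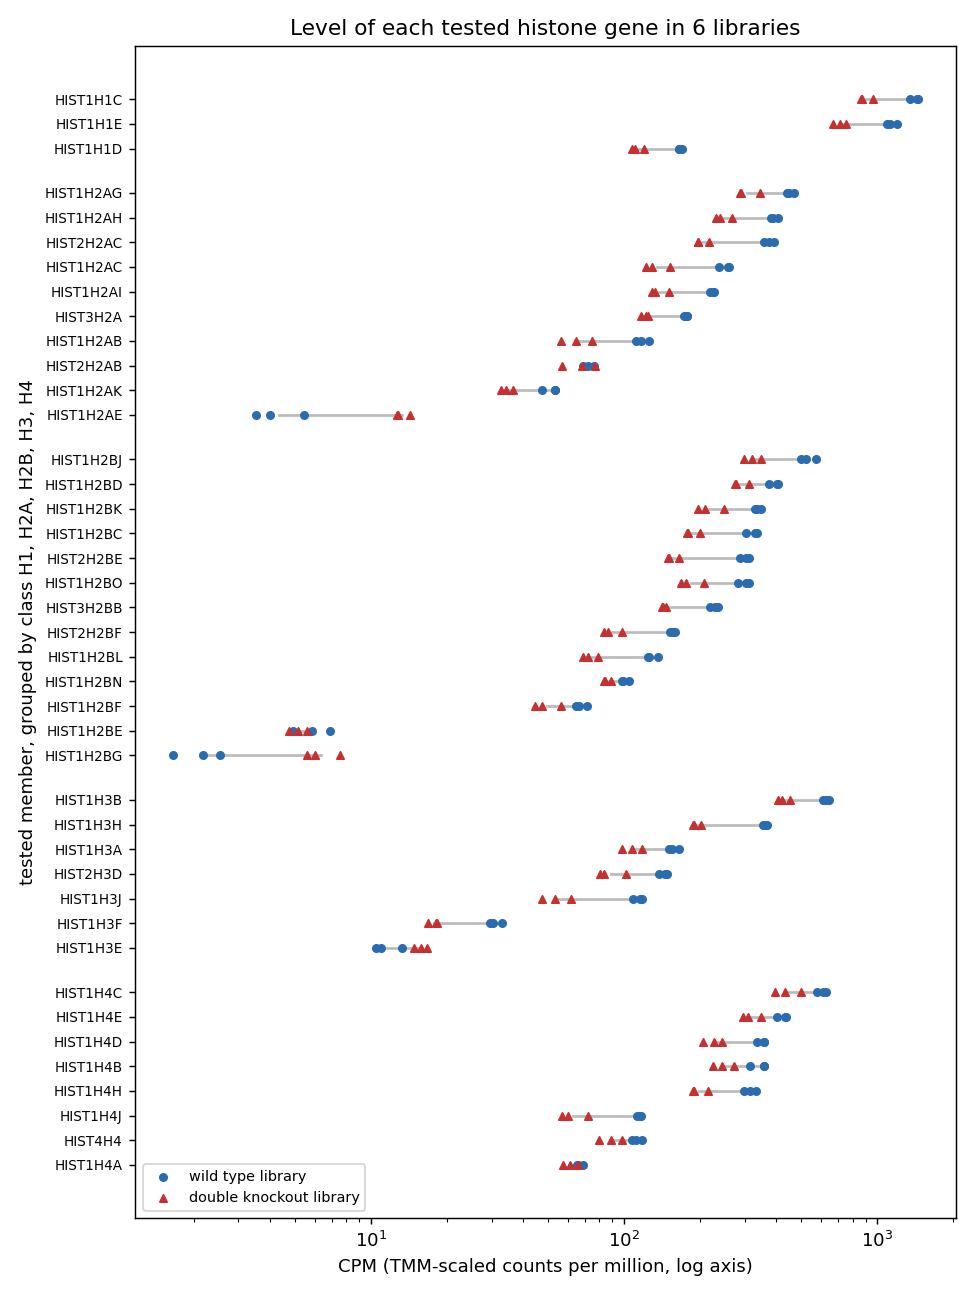
CPM on a log axis for each of the 41 tested histone genes, ordered by wild type level within its class; each circle is a wild type library, each triangle a double knockout library, and the grey line joins the group means. In 35 rows the triangles lie to the left of the circles, and in HIST1H2AE, HIST1H2BG and HIST1H3E they lie to the right.

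The linker histones came mainly from 3 genes. HIST1H1C, which encodes H1.2, was at 1346, 1453 and 1433 CPM in the wild type libraries and at 860, 966 and 873 CPM in the knockouts. Its log2 fold change was -0.65 ± 0.03 (SE, adjusted p = 2.30e-33, n = 3 and 3). HIST1H1E, which encodes H1.4, was at 1120, 1196 and 1098 CPM in the wild type libraries and at 671, 754 and 711 CPM in the knockouts (log2 fold change -0.68). HIST1H1D, which encodes H1.3, was at 165, 170 and 166 CPM and then at 111, 120 and 107 CPM (-0.56). In none of the 3 did the groups overlap. Per kilobase of exon, HIST1H1C (2197 CPM per kb in wild type) stood above HIST1H1E (1509) and HIST1H1D (251), and the order was the same in the double knockout at 1402, 944 and 169 CPM per kb. HIST1H1C supplied 51.9 ± 1.0% of wild type H1 counts and 52.2 ± 0.5% of those in the knockout (SD, n = 3).

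In class H2A, 10 of 17 genes were tested, and 8 fell, 1 rose and 1 was not called (median log2 fold change -0.62). HIST1H2AG, with the most counts of the class, was at 439, 468 and 448 CPM in the wild type libraries and at 287, 346 and 290 CPM in the knockouts, a log2 fold change of -0.55. HIST1H2AH went from 380, 406 and 386 CPM to 230, 267 and 240 CPM (-0.67). HIST2H2AC went from 357, 392 and 373 CPM to 197, 217 and 196 CPM (-0.88). HIST1H2AC had the largest fall of the class, from 236, 257 and 259 CPM to 123, 152 and 129 CPM (-0.89 ± 0.05 SE). These genes encode closely similar canonical H2A proteins, and in each of the 4 the groups were apart. Per kilobase, HIST1H2AH (1009 CPM per kb) and HIST2H2AC (960) led the class in wild type. Both remained first and second in the double knockout at 635 and 522. The annotated exon length is 387 bases for HIST1H2AH and 390 for HIST2H2AC. It is 2250 for HIST1H2AG, whose transcript model runs 1761 bases past its stem-loop. The order per kilobase therefore depends on these models.

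HIST1H2AE was the H2A gene that rose (ENSG00000277075.2, GENCODE 29 chr6:26216975-26217483, plus strand). It was at 3.99, 3.53 and 5.45 CPM in the wild type libraries and at 12.7, 12.8 and 14.2 CPM in the knockouts. The log2 fold change was 1.64 ± 0.18 (SE, edgeR adjusted p = 1.64e-18, n = 3 and 3), or 3.12-fold. Its part of the H2A counts was 0.205% in wild type cells and 0.999% in the knockouts, so it stayed the lowest of the tested H2A genes per kilobase, at 8.49 and 26.0 CPM per kb. HIST2H2AB was not called: it was at 68.9, 72.0 and 76.1 CPM in the wild type libraries and at 56.9, 77.1 and 68.5 CPM in the knockouts, and the groups overlapped (-0.09, adjusted p = 0.219). Its value was 0.01 without double knockout replicate 1, and it was called lower without double knockout replicate 2 (-0.20, adjusted p = 0.0121).

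In class H2B, 13 of 18 genes were tested, and 11 fell, 1 rose and 1 was not called (median -0.66). HIST1H2BJ went from 502, 576 and 522 CPM to 299, 346 and 319 CPM (log2 fold change -0.73). HIST1H2BD went from 375, 405 and 401 CPM to 275, 313 and 277 CPM (-0.45). HIST1H2BK went from 328, 347 and 334 CPM to 197, 247 and 208 CPM (-0.63). All 3 encode canonical H2B, and in each the groups were apart. Of the 50-base windows of HIST1H2BK 25.9% are unique in the transcriptome, so its value is uncertain as that of a single gene. HIST2H2BE had the largest fall of the class, from 312, 288 and 302 CPM to 166, 151 and 149 CPM. Its log2 fold change was -0.95 ± 0.04 (SE, adjusted p = 9.95e-91), or 1.94-fold lower. HIST1H2BL fell from 126, 125 and 137 CPM to 69.1, 78.8 and 72.0 CPM (-0.81).

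HIST1H2BG was the H2B gene that rose (ENSG00000273802.2, chr6:26215159-26216692, minus strand). It was at 1.65, 2.17 and 2.54 CPM in the wild type libraries and at 5.99, 7.54 and 5.60 CPM in the knockouts, from 162 counts in all 6 libraries together. The log2 fold change was 1.61 ± 0.25 (SE, adjusted p = 1.90e-09, n = 3 and 3), or 3.05-fold. Every double knockout library lay above every wild type library, yet the gene held 0.352% of H2B counts in the double knockout. HIST1H2BE, the H2B gene that was not called (named after its values were seen), was at 4.95, 5.84 and 6.90 CPM and then at 5.16, 4.77 and 5.60 CPM, with overlapping groups (-0.17, adjusted p = 0.504).

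In class H3, 7 of 15 genes were tested, and 6 fell and 1 rose (median -0.69). HIST1H3B was the most abundant at 612, 644 and 630 CPM in the wild type libraries and 407, 451 and 423 CPM in the knockouts (log2 fold change -0.56). HIST1H3H went from 355, 363 and 368 CPM to 188, 202 and 189 CPM (-0.91 ± 0.04 SE, adjusted p = 3.95e-94). HIST1H3A went from 151, 164 and 154 CPM to 98.4, 117 and 107 CPM (-0.54). All 3 encode H3.1, the H3 form laid down behind replication forks. HIST1H3J (ENSG00000197153.4, chr6:27890382-27893106, minus strand) had the largest fall of the 41 genes: it was at 118, 109 and 116 CPM in the wild type libraries and at 47.3, 61.6 and 53.4 CPM in the knockouts. Its log2 fold change was -1.07 ± 0.06 (SE, adjusted p = 1.25e-55, n = 3 and 3). Of its 50-base windows 59.1% are unique and it overlaps HIST1H2AM, so this value is uncertain as that of a single gene. HIST1H3F fell from 30.5, 29.6 and 33.0 CPM to 18.1, 18.3 and 16.8 CPM (-0.80).

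HIST1H3E (ENSG00000274750.2, chr6:26224199-26227473, plus strand) was the H3 gene that rose, from 11.0, 13.3 and 10.5 CPM to 14.8, 16.6 and 15.8 CPM. The log2 fold change was 0.43 ± 0.13 (SE, adjusted p = 0.00230, n = 3 and 3), and it was 0.32 and not called when libraries were scaled by spike-in counts (adjusted p = 0.0830). Shares within class H3 differed between the groups. HIST1H3B supplied 43.4 ± 0.4% of wild type H3 counts and 47.3 ± 0.6% of those in the knockout, while HIST1H3H supplied 25.0 ± 0.3% and 21.3 ± 0.6% (SD, n = 3). These shares are given as a description, without a test.

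In class H4, 8 of 15 genes were tested, and 7 fell and 1 was not called (median -0.46). HIST1H4C, the most abundant, went from 581, 629 and 609 CPM to 396, 501 and 431 CPM. Its log2 fold change was -0.45 ± 0.10 (SE, adjusted p = 0.0177), and the call was lost without wild type replicate 1, wild type replicate 2 or double knockout replicate 3 (adjusted p = 0.0533, 0.0616 and 0.0671), although the groups did not overlap. HIST1H4E went from 401, 438 and 432 CPM to 295, 348 and 309 CPM (-0.42). HIST1H4B went from 315, 358 and 357 CPM to 225, 272 and 243 CPM (-0.47). The tested H4 genes encode the same protein, and the lower genes of the class spanned a wide range. HIST1H4J had the largest fall, from 116, 117 and 113 CPM to 56.9, 72.0 and 60.3 CPM (-0.87), but 18.8% of its 50-base windows are unique in the transcriptome, so the value is uncertain as that of a single gene. HIST1H4H (-0.68) and HIST1H4D (-0.64) followed. HIST1H4A, named after its values were seen, was at 65.2, 68.8 and 65.7 CPM and then at 57.6, 66.0 and 61.0 CPM, with overlapping groups (-0.11, adjusted p = 0.107). It was called lower only when double knockout replicate 2 was left out.

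Summed by class, H1 was at 63.5% of its wild type level in the double knockout, H2A at 63.0%, H2B at 62.8%, H3 at 62.4% and H4 at 70.4%. The H4 sum was 2221, 2419 and 2362 CPM in the wild type libraries and 1503, 1815 and 1609 CPM in the knockouts. As a share of all histone counts, H4 was 20.0, 20.4 and 20.5% in wild type and 21.6, 22.6 and 22.3% in double knockout. The other core classes had smaller mean shares in the knockouts, H2A at 18.4 and 17.9%, H2B at 25.0 and 24.4% and H3 at 12.6 and 12.2%, each without overlap between the groups. The H1 share overlapped between groups, at 23.6 and 23.3% on average. A class share does not depend on how the libraries are scaled. The shares add up to the whole, so a larger H4 share makes the others smaller, and their lower shares are not separate results. Leaving out 1 library at a time, the log2 ratio of the H4 sum lay between -0.59 and -0.45 and that of the H3 sum between -0.73 and -0.64.

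**Figure D2:**
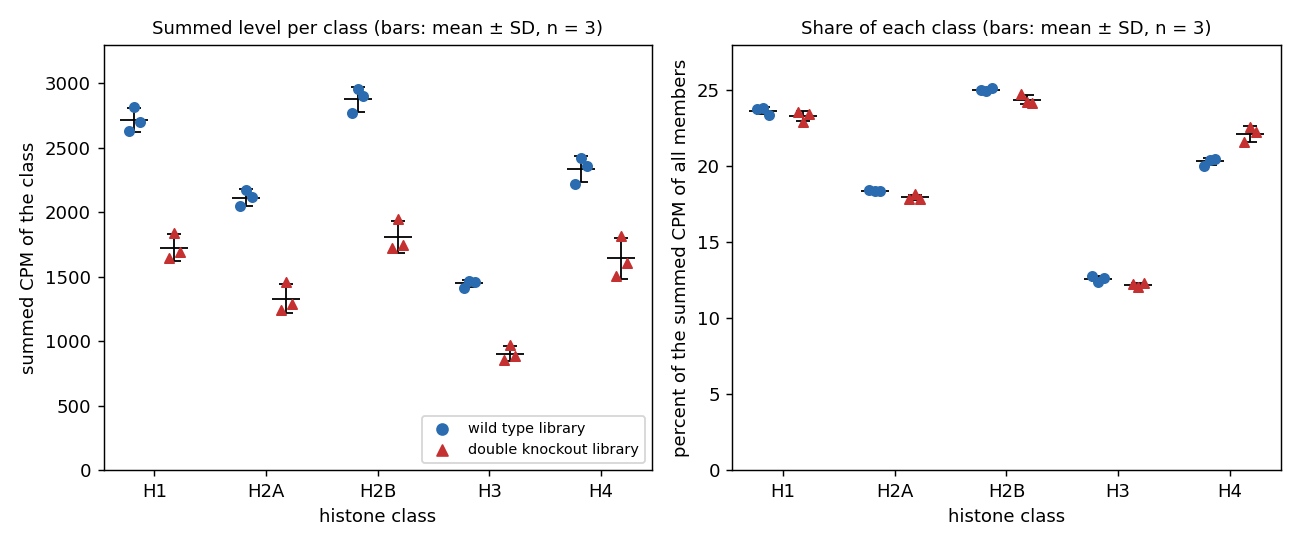
Left, summed CPM of each histone class by library; right, the share of each class in the summed CPM of all histone genes; black bars are mean ± SD of 3 libraries. All 5 class sums are lower in the double knockout, and the H4 share is 20.0 to 20.5% in wild type and 21.6 to 22.6% in double knockout.

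The genes lie in 4 named clusters: HIST1 on chromosome 6 with 55 genes, HIST2 and HIST3 on chromosome 1 with 12 and 3 genes, and HIST4 on chromosome 12 with 1 gene. In HIST1, 33 genes were tested, and 28 fell, 3 rose and 2 were not called (median -0.63), with the sum at 65.0% of wild type. In HIST2, 4 of 5 tested genes fell (median -0.80), with the sum at 57.7%. In HIST3 both tested genes fell (median -0.60), with the sum at 65.7%. HIST4H4, the lone gene of HIST4, went from 107, 118 and 112 CPM to 79.8, 98.0 and 88.8 CPM, or 79.2% of wild type (-0.33 ± 0.05 SE, adjusted p = 1.08e-09, n = 3 and 3). A fall was therefore called in all 4 clusters, and differences between clusters were not tested.

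HIST2 holds HIST2H2BE, HIST2H2AC and HIST2H2AB, given above, and 2 further tested genes. HIST2H2BF went from 152, 160 and 156 CPM to 86.8, 98.2 and 83.4 CPM (-0.80), and its row overlaps FCGR1A in the annotation. HIST2H3D, an H3 gene with 19.6% of its 50-base windows unique in the transcriptome, went from 138, 146 and 148 CPM to 80.8, 102 and 83.5 CPM (-0.69). In HIST3, the H2A gene HIST3H2A went from 177, 172 and 178 CPM to 117, 125 and 123 CPM (-0.53). Its H2B neighbour HIST3H2BB went from 219, 230 and 234 CPM to 142, 147 and 141 CPM (-0.66). Both show tight groups without overlap.

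HIST1 falls into 3 groups of neighbours when split at gaps over 0.5 Mb. The first (chr6:25726132-26285638) has 34 genes, of which 21 were tested: 16 fell, 3 rose and 2 were not called, with a median of -0.54. The second (chr6:27125897-27147515) has 5 genes, and all 4 tested fell, with a median of -0.65. In the third (chr6:27807444-27893843), with 16 genes, all 8 tested fell, with a median of -0.76 and the sum at 59.0% of wild type. HIST1H3J, HIST1H3H and HIST1H4J, among the largest falls of their classes, lie in the third group. Tested genes within 5 Mb that are not histone members had medians of 0.08, 0.11 and 0.15 around the 3 groups, 0.00 around the main HIST2 group, -0.04 around HIST3 and 0.08 around HIST4. Within 1 Mb the medians were 0.09, 0.09 and -0.11 around the 3 HIST1 groups, -0.04 around the main HIST2 group, 0.17 around HIST3 and -0.06 around HIST4. Taking the local median away from each histone gene left a median of -0.69 (5 Mb) or -0.66 (1 Mb) over the 41 genes. The order of the 3 HIST1 groups depended on the window: the group median less the flanking median was -0.61, -0.76 and -0.90 with 5 Mb and -0.63, -0.74 and -0.65 with 1 Mb.

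**Figure D3:**
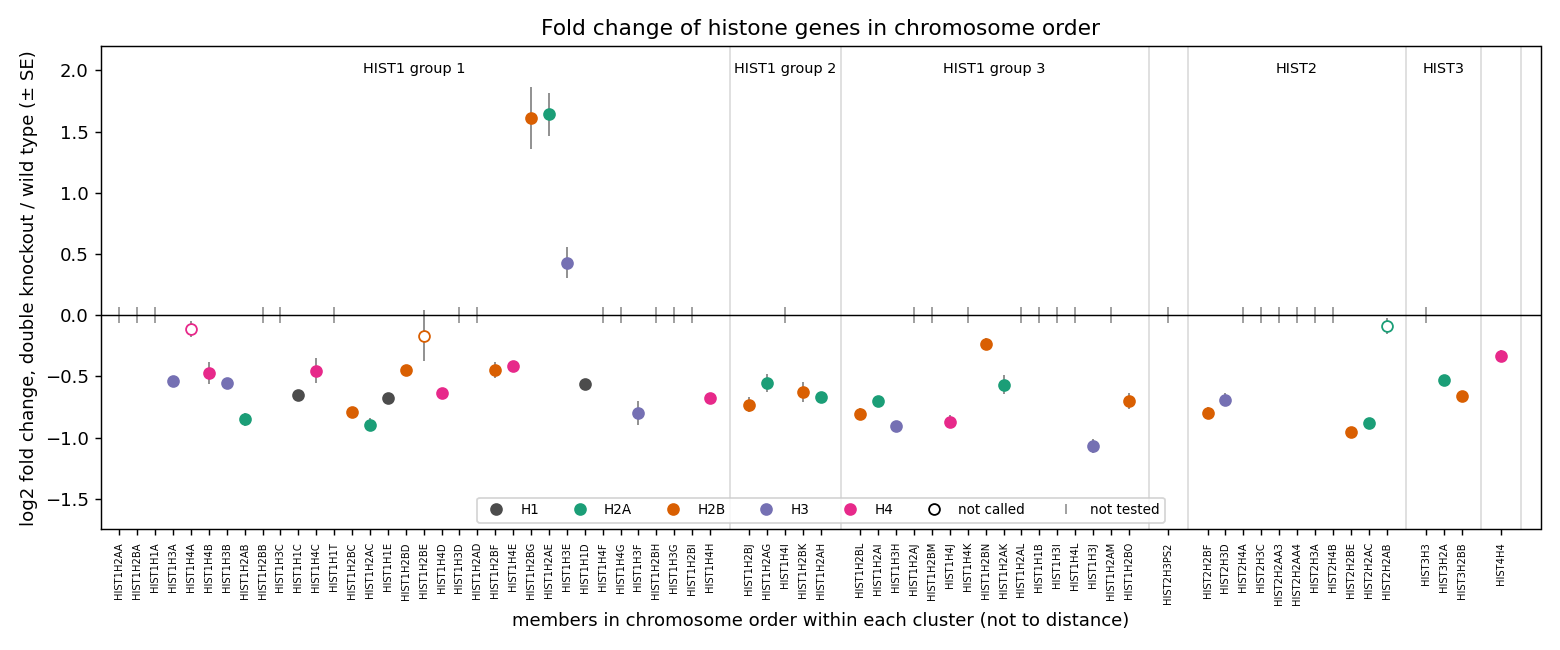
Log2 fold change of each tested histone gene (± SE) in chromosome order within its cluster, coloured by class; open circles were not called and grey ticks mark genes not tested. The 35 genes called lower lie between -1.07 and -0.23, and the 3 genes above 0 stand next to one another in the first HIST1 group.

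The 3 genes that rose are consecutive in the list of tested genes, within chr6:26215159-26227473. Their nearest tested neighbours, HIST1H4E on one side and HIST1H1D on the other, fell (-0.42 and -0.56). TRIM38, a gene inside the first HIST1 group that is no histone gene, was higher (0.28, adjusted p = 0.0192), while AL031777.3, also inside it, was not called (0.77, adjusted p = 0.0683), nor was U91328.1 (0.01, adjusted p = 0.983). The risers are also among the least abundant tested genes. Of the 4 histone genes with a mean under 20 CPM, 3 rose and 1 was not called. Of the 9 at 20 to 100 CPM, 7 fell and 2 were not called, and all 28 at 100 CPM or more fell. Over the 41 genes the log2 fold change and the log2 mean level had r = -0.66 and rho = -0.24, given as a description: the points share libraries and the low end rests on 4 genes.

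Many H2A and H2B genes stand head to head, sharing the stretch between their starts. There were 12 pairs of histone gene rows on opposite strands with 218 to 356 bases between them. All were H2A and H2B pairs except HIST1H3J with HIST1H2BO, the widest at 356 bases. Both genes were tested in 7 of the H2A and H2B pairs. In all 7 both genes were called in the same direction, 6 down and 1 up, and the log2 fold changes within a pair differed by 0.03 to 0.18, with a median of 0.10. Since most histone genes fell, other combinations of a tested H2A and a tested H2B gene often share a call too: 83 of 123 did (67.5%), with a median difference of 0.26 and a range of 0.01 to 2.60. These counts are a description, since the combinations share genes. HIST2H2BE and HIST2H2AC were -0.95 and -0.88. HIST1H2BC and HIST1H2AC were -0.79 and -0.89. HIST1H2BG and HIST1H2AE, 282 bases apart, were 1.61 and 1.64, so the largest rises of both classes belong to 1 pair. HIST1H3J and HIST1H2BO, an H3 and an H2B gene whose annotated rows end 356 bases apart, both fell but differed by 0.37 (-1.07 and -0.70). The HIST1H3J row spans chr6:27890382-27893106 but holds only 411 exon bases. It overlaps HIST1H2AM, which lies 313 bases from HIST1H2BO. Whether the start of HIST1H3J faces that of HIST1H2BO is therefore uncertain.

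**Figure D4:**
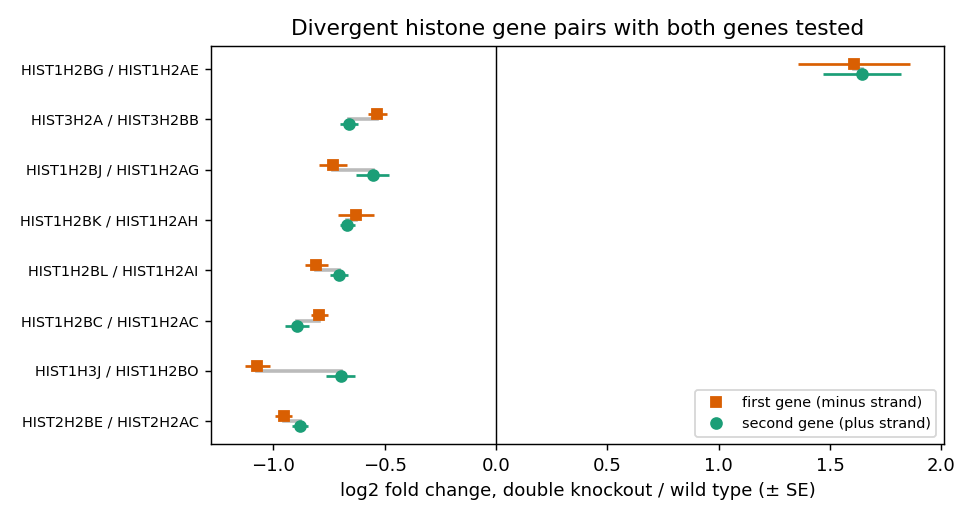
Log2 fold change (± SE) of both genes of each divergent pair with both genes tested; squares are the gene on the minus strand and circles its partner on the plus strand. The 2 genes of HIST1H2BG / HIST1H2AE lie at 1.61 and 1.64, and the other 7 pairs lie below 0 with genes that differ by at most 0.37. Pairs were set by the ends of the annotated gene rows, and for HIST1H3J / HIST1H2BO a shared stretch between the starts is uncertain.

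Near-identical copies and overlaps limit which gene a read can be given to. Of the 41 tested genes, 29 had at least 90% of their 50-base windows unique in the transcriptome, and of these 24 fell, 3 rose and 2 were not called (median -0.56). Of the 12 below 90%, 11 fell and 1 was not called (median -0.70). How reads that map to several places were counted is not given in the sources used here. HIST1H2AK, with none of its windows unique, overlaps HIST1H2BN on the other strand, and their log2 fold changes of -0.57 and -0.23 are uncertain as values of single genes. Among tested genes with a stem-loop in the model, those with the commonest version numbered 12: 9 fell, 2 rose and 1 was not called. All 5 tested genes with the H4 version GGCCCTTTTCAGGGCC fell, as did all 3 with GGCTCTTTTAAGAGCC. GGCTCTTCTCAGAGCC was found in HIST1H3E, which rose, and in no other member. Of the 19 tested genes with no stem-loop in the model, 17 fell and 2 were not called. For each gene the transcript with the stem-loop nearest its stop codon was used. It ran more than 150 bases past the stem-loop in 11 tested genes, of which 10 fell and 1 rose. In the other 11 it ended within 150 bases, and 8 fell, 2 rose and 1 was not called. Some of these 11 genes also have longer transcripts, such as HIST1H3E (2679 bases), HIST1H2BE (2585) and HIST1H4H (1034). The split is therefore by the transcript used and not by gene.

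30 histone genes were not tested because too few counts passed the filter. 15 were at 0 in all 6 libraries: HIST2H3PS2, HIST2H2AA3, HIST2H3A, HIST1H2AA, HIST1H3D, HIST1H2AD, HIST1H4F, HIST1H4G, HIST1H2BI, HIST1H2AJ, HIST1H2BM, HIST1H2AL, HIST1H1B, HIST1H3I and HIST1H4L. In 10 there were 1 to 3 counts over all libraries and never more than 2 in one: HIST2H4A, HIST2H3C, HIST2H2AA4, HIST2H4B, HIST3H3, HIST1H2BA, HIST1H3C, HIST1H3G, HIST1H4K and HIST1H2AM. The last 5 had a highest count in 1 library of 2 (HIST1H1A), 4 (HIST1H4I), 5 (HIST1H2BB), 5 (HIST1H1T, a testis H1) and 6 (HIST1H2BH). A count of 0 allows up to 3 counts, or 0.407 to 0.545 CPM depending on the library, for counting error only. 10 of the 30 have under 5% of windows unique and 9 overlap another gene, while 18 have at least 90% unique. HIST1H1B, the gene of H1.5, is wholly unique with no overlap and was at 0 in all libraries, next to HIST1H3I and HIST1H4L, also at 0. FEN1, a replication nuclease, had 14 counts in the 6 libraries together. A count near 0 in this table is therefore given as a count and not as lack of transcription.

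Genes that make, use or protect histone mRNA were called in both directions, against 28.5% of all tested genes lower and 28.6% higher, but fewer were higher when libraries were scaled by spike-in counts. Of 18 tested genes of stem-loop 3′ end processing, 7 fell, 4 rose and 7 were not called (median -0.02), and with spike-in scaling 7 fell and 1 rose. SLBP itself was higher, with means of 152 CPM in wild type and 235 in double knockout (0.63 ± 0.04 SE, adjusted p = 1.44e-46, n = 3 and 3). SYMPK, the scaffold of the cleavage complex, was lower, at 142 and 94.97 CPM (-0.58). The Sm protein gene SNRPB (0.24) and the endonuclease gene CPSF3 (0.28) were higher, though not called with spike-in scaling (0.13 and 0.17, adjusted p = 0.172 and 0.132), and SRRT (ARS2) was lower (-0.17).

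Of 13 tested genes of histone gene transcription, 5 fell, 5 rose and 3 were not called (median -0.09), and with spike-in scaling 5 fell and 2 rose. CCNA2, cyclin A2 of S phase and G2, was lower at 186 and 104 CPM (-0.83), while the G1/S activators E2F2 (0.85) and E2F1 (0.62) were higher. POU2F1, which binds the octamer of H2B promoters, was lower (-0.40), and so was YY1 (-0.27). NPAT, the coactivator of histone loci, was not called (-0.09, adjusted p = 0.158). Of 11 tested genes of histone mRNA decay and translation, 5 fell, 4 rose and 2 were not called (median -0.12), and with spike-in scaling 5 fell and 1 rose. MIF4GD (SLIP1), an SLBP partner in translation, was higher (0.81). The 5′ exonuclease gene XRN1 (-0.52), CTIF (-0.49) and the decapping gene DCP2 (-0.27) were lower, and LSM4 was higher (0.25), though not called with spike-in scaling (0.14, adjusted p = 0.173). ERI1, the exonuclease that trims the stem-loop end, was not called (-0.12, adjusted p = 0.138).

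Of 19 tested histone chaperone genes, 8 fell, 5 rose and 6 were not called (median -0.09), against 28.5% of all tested genes lower and 28.6% higher. The 5 higher calls became 0 with spike-in scaling, where 9 were lower, and 3 with DESeq2, without wild type replicate 1 or without double knockout replicate 1. ASF1A, a chaperone of H3 and H4, fell from 89.4 to 53.5 CPM (-0.74). NAP1L1 (-0.33), NASP (-0.32), ATRX (-0.41) and CABIN1 (-0.32) were lower as well. In the main scaling the S phase list moved mostly the other way: of 33 tested genes 18 were higher, 6 lower and 9 not called (median 0.12). Over all tested genes 28.6% were higher and 28.5% lower. With spike-in scaling 7 of the S phase list were higher, so the count of higher genes depended on the scaling. MCM7 (0.52), CDT1 (0.77), RPA2 (0.48), RFC1 (0.49) and RFC2 (0.59), which license or copy DNA and had the smallest p of the list, were higher. MCM2 (-0.37), LIG1 (-0.49), POLD1 (-0.40) and RPA3 (-0.31), which take part in the same steps, were lower.

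The 11 replication-independent histones are made outside S phase as well, mostly from polyadenylated mRNAs. Of these, 10 were tested: 8 fell, 1 rose and 1 was not called (median -0.26), against 28.5% of all tested genes lower and 28.6% higher. H2AFZ was at 782 and 475 CPM (-0.72), H1FX at 106 and 69.4 (-0.61) and CENPA, the centromere H3, at 64.7 and 48.5 (-0.41). H2AFV (-0.35), H1F0 (-0.27), H3F3A (-0.25), H2AFY2 (-0.24) and H3F3B (-0.10) also fell. The call of H3F3A was lost with DESeq2 (adjusted p = 0.0944) and without double knockout replicate 2 (0.0571). That of H3F3B was lost without double knockout replicate 3 (0.0859), and its groups overlapped. H2AFX rose by a small amount (0.12, adjusted p = 0.00620), which was not called with spike-in scaling (0.01, adjusted p = 0.922), with DESeq2 (adjusted p = 0.0552) or without wild type replicate 1 (0.0760) or double knockout replicate 2 (0.0565). H2AFY was not called (0.02), and H2AFJ was at 0 in all libraries. Their summed level was 2395 to 2480 CPM in wild type and 1920 to 1987 CPM in the knockouts, a log2 ratio of -0.33 beside -0.63 for the replication-dependent genes. The difference between the 2 sums was not tested.

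**Figure D5:**
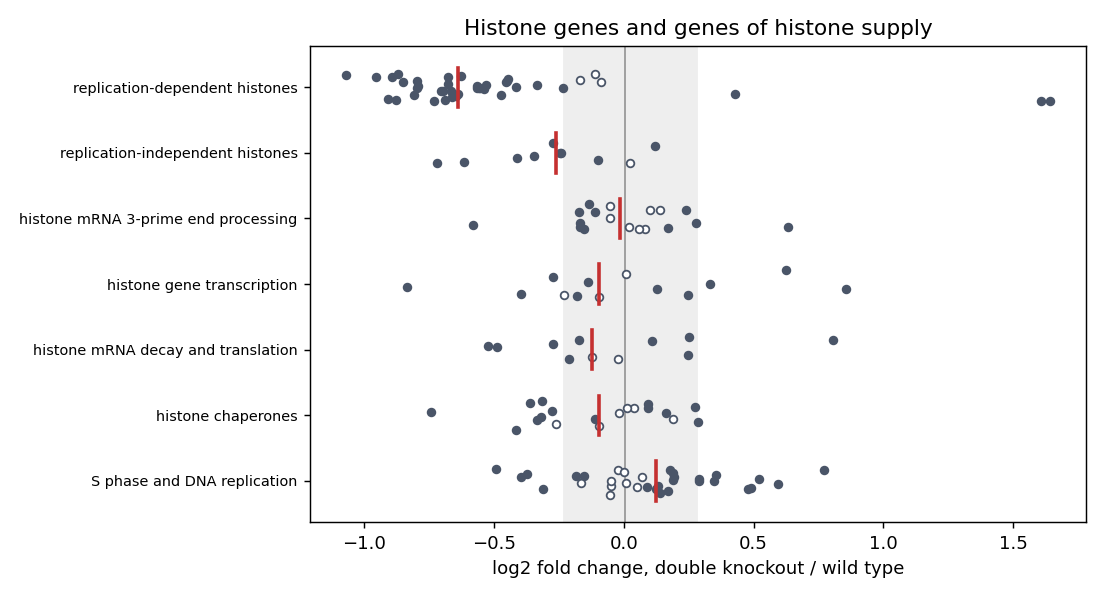
Log2 fold change of every tested gene in the replication-dependent histone set and in 6 related lists; filled points were called, open points were not, red bars are medians, and the grey band and line are the quartiles (-0.23 and 0.28) and median (0.01) of all tested genes. The replication-dependent histone median of -0.64 lies outside the band, and the S phase median is 0.12.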

How the data were processed

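RNA from 6 libraries was analysed, 3 wild type and 3 double knockout, grouped by the sample titles and genotype labels. The wild type count columns are named HEK293G6; the labels do not explain G6, and the columns were matched by HEK293, the replicate number and the labels' having only 1 other genotype. Per the submitters' processing notes, reads were trimmed with cutadapt 2.10, aligned with STAR 2.7.6a to hg38 and counted per gene with featureCounts; the strand setting and how multi-mapped reads were handled are not stated there. As deposited, the values are raw counts per gene, with entries for spike-in RNAs (7 pg GFP and 1.2 pg FLuc per 1 µg RNA, per the labels' protocols), which stayed out of library sizes. Gene identifiers matched GENCODE release 29. The library kit marks strand.

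Here counts were filtered (filterByExpr: at least 10 counts scaled to depth, 15 in total), scaled by TMM and tested with edgeR 4.0.16 (glmQLFit, robust; glmQLFTest, two-sided) in R 4.3.3, with Benjamini-Hochberg adjustment over all tested genes at 0.05. The same steps were tested on simulated data. Alternatives were DESeq2 1.42.0, limma 3.58.1 (voom), size factors, spike-in scaling, TMM without the histone genes, other filters, a replicate block, subtraction of flanking genes and leaving out each library. Figures were drawn with matplotlib. P-values measure the spread between these libraries. Chi-square over degrees of freedom was 1.10 to 1.38 between libraries of a group over all genes, so none was a copy of another. Over the histone genes it was 1.02 to 2.44, highest between double knockout replicates 1 and 2. Over all genes the spread was little above counting error, with a biological coefficient of variation of 2.4%, and it was wider for the histone genes in some pairs of libraries. Whether it includes any spread between clones is not known, so genotype and clone cannot be told apart.

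Members and gene lists were chosen with earlier results of these data known. Genes named were, in each class, the 3 most abundant and the 3 with the largest change; all tested genes of HIST2 to HIST4; those in a direction taken by 5 or fewer; the 5 with the smallest p in each pathway list; all replication-independent histones; the untested genes; and the targeted genes. Other genes, named for a pair, an overlap, a position or a known role, were chosen after their values were seen. Uniqueness was the share of a gene's 50-base windows found in no other gene's transcripts.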

Additional observations from a re-analysis of the deposited data

Results flagged for a closer look

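The table has an entry for a Renilla luciferase spike-in (Rluc) that the labels do not name among the RNAs added. It held 2005 counts over the 6 libraries, above the 3 counts that a true 0 allows: 378, 363 and 271 in wild type and 328, 367 and 298 in double knockout. The named GFP and FLuc entries held 1994 and 300 counts. Rluc entered no library size and no scaling here. Groups of 3 libraries were too small for a check of single outlying libraries.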

How the results depend on the processing

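Of 1186 values recomputed under alternatives, 1154 kept their direction and their side of the threshold, or stayed within their limits. The count of lower histone genes was 35 under every scaling, tool and filter tried, and 34 to 37 without 1 library; the count of higher ones was 3, except 2 with spike-in scaling (HIST1H3E lost) and 2 with a mean of at least 5 CPM (HIST1H2BG filtered out), and 3 to 3 without 1 library. The median log2 fold change ranged from -0.75 with spike-in scaling to -0.58, and from -0.70 to -0.58 without 1 library. The log2 ratio of the summed CPM was -0.74 with spike-in scaling and -0.70 to -0.60 without 1 library. With the replicate block the counts were 35 lower and 3 higher and the median was -0.64, so the block changed no call among these genes; it moved HIST1H4C from an adjusted p of 0.0177 to 4.67e-55. Deviations of same-numbered libraries from their group means had correlations of 0.0106, 0.0166 and 0.0085 over all tested genes and -0.02, 0.42 and 0.21 over the 41 histone genes, where replicate 2 had the highest sum and replicate 1 the lowest in both groups; not every library correlated best with its own number, and the numbers were not taken as pairs. With spike-in scaling the median of all genes moved from 0.01 to -0.10, and the share of calls that were higher went from 50.1% to 33.5% (2133 higher and 4236 lower); the spike-in factors rest on 316 to 440 counts per library. Counts of higher genes then were 1 for 3′ end processing, 2 for transcription, 1 for decay and translation, 0 for chaperones, 0 for replication-independent histones and 7 for the S phase list. Chaperones had 3 higher with DESeq2, without wild type replicate 1 and without double knockout replicate 1; replication-independent histones had 0 higher with DESeq2, without wild type replicate 1 and without double knockout replicate 2. H2AFY changed sign with spike-in scaling (-0.088), without wild type replicate 1 (-0.0004) and without double knockout replicate 2 (-0.015), with values up to 0.045 otherwise without 1 library. HIST2H2AB changed sign without double knockout replicate 1 (0.012), with values down to -0.199 without 1 library; none of the reversed values was called. The cause of these changes was not tested. Over all genes DESeq2 called 3138 lower and 3027 higher. The 30 untested genes have at most 22 counts each; how depth, shared sequence and overlaps bear on this was not tested.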

Other observations

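19 further rows of the table carry histone cluster symbols but are annotated as pseudogenes and were not members. 2 of them held nearly all of their counts, and both lie in the main HIST2 group on chromosome 1. HIST2H2BC had 57, 53 and 43 counts in wild type and 44, 57 and 63 in double knockout (log2 fold change 0.20 ± 0.17 SE, edgeR adjusted p = 0.306). HIST2H2BD had 39, 37 and 32 counts and then 38, 44 and 38 (0.25 ± 0.20 SE, adjusted p = 0.276). Neither was called, while 4 of the 5 tested genes of the same cluster were lower. The other 17 had at most 6 counts each over the 6 libraries. BOLA1, a non-histone gene that overlaps HIST2H2AB in the annotation, was higher (0.37 ± 0.10 SE, adjusted p = 0.000890). Its means were 18.3 CPM in wild type and 24.0 in double knockout. HIST2H2AB, the tested HIST2 gene that was not called, had means of 72.3 and 67.5 CPM. The overlap is short, from chr1:149887890 to 149887916. Reads of the overlap cannot be told apart without the strand setting, and its part in either value was not tested.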
